A study of Glycine max with 10 samples.

Results

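Transcript levels of 4 soybean genes of starch and sucrose metabolism were followed through seed filling: the granule-bound starch synthase GBSSIa, the sucrose synthase SS and the beta-amylases LOC547684 and LOC547931. The members were all probe sets that a table of probe sets and genes pairs with only one of these symbols, which gave 10 probe sets of the 37593 on the array: 3 each for GBSSIa, SS and LOC547684, and 1 for LOC547931. Each of the 8677 probe sets with a single symbol represents 1 of 6031 genes. The seeds came from the variety Evans, grown in the field and otherwise untreated, and no group carried a different genotype or agent. Whole seeds were sampled on 5 days counted from flowering (25, 30, 40, 45 and 50 DAF) in 2 biological replicates a time point, each a pool of seeds from several plants, with 1 Affymetrix Soybean Genome Array for each RNA sample.

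In developing seeds sucrose arriving from the leaves is cleaved either by invertase or by sucrose synthase, which yields UDP-glucose and fructose. Starch synthases extend glucan chains from ADP-glucose. The granule-bound form is known for making amylose, the largely unbranched part of the starch granule, and branching enzymes shape the remainder. Beta-amylase removes maltose from the ends of these chains. Soybean seeds build up starch for a time while they fill and hold little of it when mature, and some legume seeds also carry an abundant beta-amylase protein.

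The names of the members need a caution. The gene table gives SS the synonym N-100 and GBSSIa the synonym GBSSI, and both beta-amylases the synonym BMY1, so that BMY1 alone does not tell them apart. LOC547931 carries in addition the synonyms Gm-BamyDam and Gm-BamyKza. The study's annotation pairs 2 of the LOC547684 probe sets with the Arabidopsis locus AT5G18670, a member of the beta-amylase family that in Arabidopsis is known to lack the catalytic activity. Probe sets whose names end in _s_at can match several related transcripts, which applies to the second probe set of SS and the third of LOC547684. The probe sets of a gene are called the brightest, the second and the third in the order of their mean signal.

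Signals are arbitrary brightness units brought to a common array median of 309.9. The deposited arrays had medians of 303.8 to 325.2 up to 45 DAF, and of 220.8 and 222.8 at 50 DAF, so a fold change at 50 DAF depends on the scaling. The 2 arrays of 45 DAF differed most, with a correlation over all probe sets of 0.88 (at the other time points 0.919 to 0.927). Of the 18059 probe sets called between 25 and 50 DAF in a fit without the 45 DAF arrays, 15177 (84%) had replicate 2 of 45 DAF displaced toward 50 DAF relative to replicate 1. Storage protein genes, the markers of the embryo and cotyledons, summed to between 229800 and 386970 on every array (6 probe sets of GY1, GY2, GY3 and GY5, 4 of 7 listed symbols found). The sum hides GY3, which read 34837 and 42198 at 25 DAF, 33426 and 7930 in replicates 1 and 2 of 45 DAF, and 2386 and 744 at 50 DAF (log2 change from 25 to 50 DAF -4.85, limma adjusted p = 0.00022). The seed coat and surface genes (SCB1, HPS and SSTP-1, 3 of 4 listed symbols found, none at 0) summed to 71260 to 120890 at 25 and 30 DAF, 54368 to 61134 at 40 DAF, 56948 and 15576 at 45 DAF, and 813 and 581 at 50 DAF. In whole seeds fewer cells of a type and less RNA per cell cannot be told apart.

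Over the 5 time points 9 of the 10 probe sets changed (overall F-test in limma, adjusted p under 0.01, over all probe sets), where 24.0% of all probe sets did. The exception was the brightest probe set of SS (limma, adjusted p = 0.0126). This count was 0 without the variance trend and 0 with the methods' F-test after adjustment. It was also lower without either array of 50 DAF, a fit with a single array at that time point. The 24.0% belongs to the reported fit, and no share of all probe sets is given for these other fits. The study's own list of called transcripts included probe sets of LOC547684. Between 25 and 50 DAF 3 probe sets were higher, all of LOC547684, and 7 were lower, all those of GBSSIa, SS and LOC547931 (limma, adjusted p under 0.05). Of all probe sets 24.6% were higher and 19.3% lower in that comparison. The median change of the members was -1.08 on the log2 scale, against 0.17 over all probe sets. The 10 probe sets belong to 4 genes that moved in opposite directions, so this median depends on how many probe sets each gene has.

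**Figure D1:**
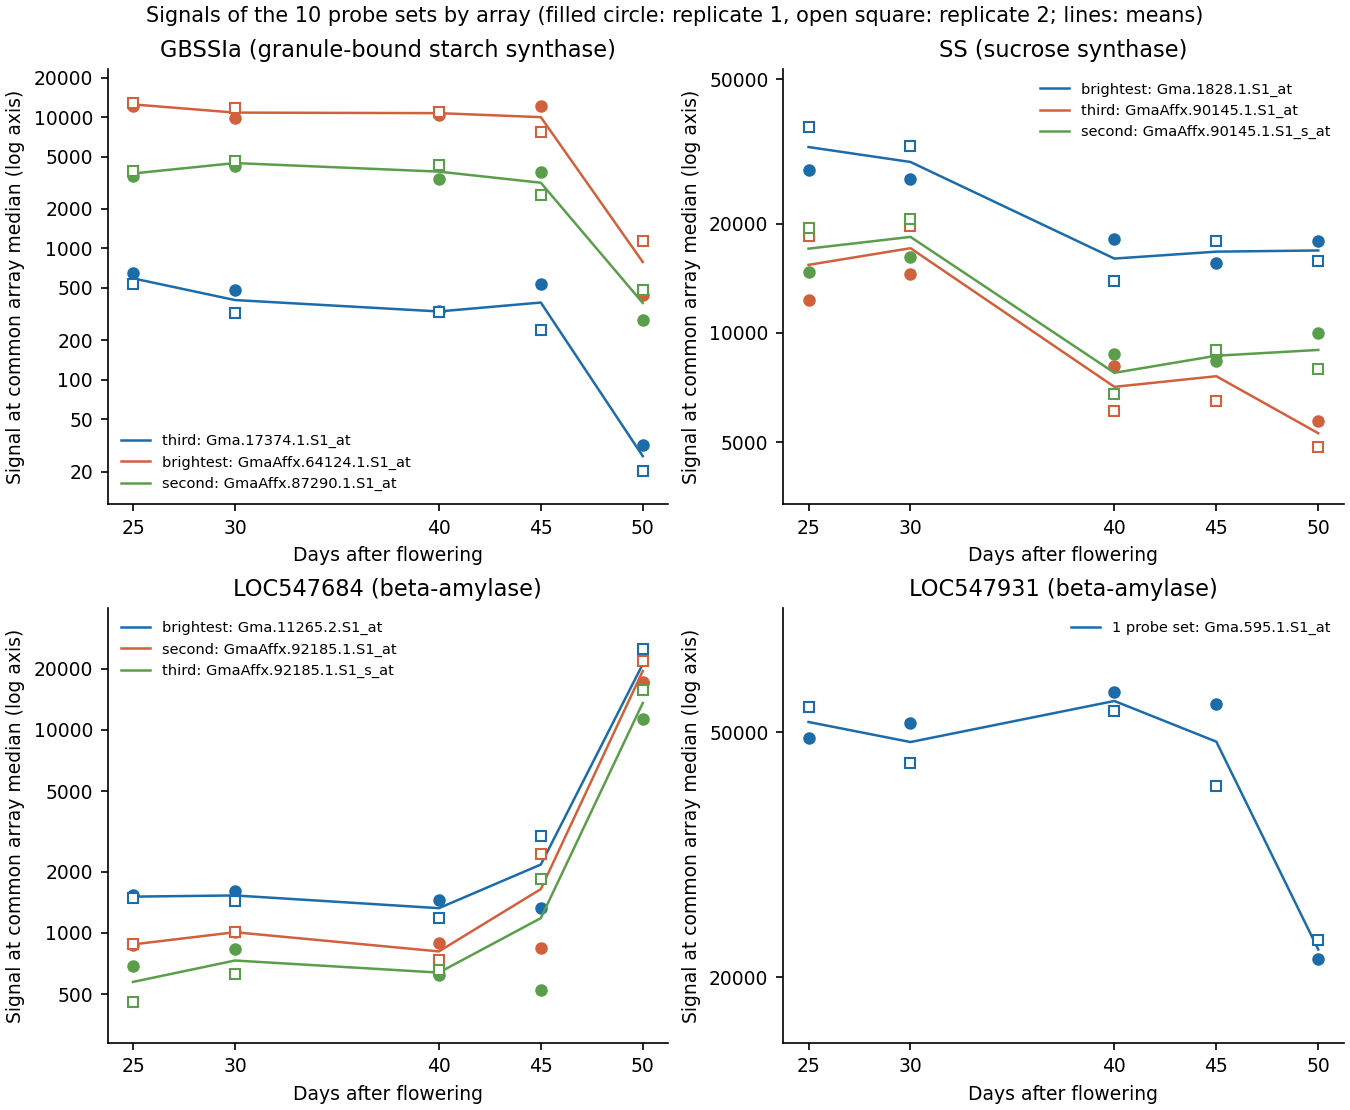
Signal of each probe set (log axis, scaled to a common array median) against days after flowering, in 1 panel a gene, with filled circles for replicate 1, open squares for replicate 2 and lines through the means. GBSSIa and LOC547931 are lowest, and LOC547684 is highest, on the 2 arrays of 50 DAF, whereas SS is highest on the 4 arrays of 25 and 30 DAF.

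GBSSIa, the starch synthase of the granule, showed no called change through 45 DAF and fell between 45 and 50 DAF. Its brightest probe set gave 12122 and 12918 at 25 DAF, 9893 and 11787 at 30 DAF, 10468 and 11009 at 40 DAF, 12258 and 7758 at 45 DAF, and 444 and 1134 at 50 DAF. Both arrays of 50 DAF were below every earlier array, and the 8 earlier arrays lay between 7758 and 12918. The fall between 25 and 50 DAF was 17.6-fold (log2 change -4.14, SE 0.38, limma adjusted p = 8.8e-05).

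The other GBSSIa probe sets followed the same course at other brightness. The second probe set read 3568 and 3886 at 25 DAF, 4283 and 4666 at 30 DAF, 3404 and 4294.5 at 40 DAF, 3805 and 2534 at 45 DAF, and 283.5 and 486 at 50 DAF. Its change between 25 and 50 DAF was -3.33 (SE 0.29, limma adjusted p = 7.63e-05). The third ran from 652 and 532 at 25 DAF, through 485 and 324 at 30 DAF, 335 and 327.5 at 40 DAF, and 535.5 and 239 at 45 DAF, to 32.1 and 20.3 at 50 DAF. Its change was -4.53 (SE 0.40, limma adjusted p = 7.85e-05), but its 50 DAF signals lay under 50, where array readings are unreliable, so the size of that fall is uncertain. All 3 probe sets of GBSSIa had both 50 DAF arrays below the other 8.

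Among the 4 intervals between neighbouring time points, GBSSIa was called lower only in the one from 45 to 50 DAF. There the log2 changes of the 3 probe sets were -3.78, -3.06 and -3.81 (limma, adjusted p = 0.000373, 0.000299 and 0.000448). Before it, the means of the 4 earlier time points spanned 0.36 to 0.83 on that scale, and no GBSSIa probe set was called between 25 and 45 DAF. The 2 arrays of 45 DAF differed by 0.59 to 1.16, replicate 2 being lower for all 3 probe sets. Without replicate 1 of 45 DAF the log2 changes from 40 to 45 DAF were -0.69, -0.76 and -0.27. Without replicate 2 they were 0.41, 0.16 and 0.50. The replicates of 50 DAF also differed, the brightest probe set by 1.35 with replicate 2 higher and the third by 0.66 with replicate 2 lower. The summed signal of the seed coat and surface genes was also lower at 50 DAF (813 and 581) than at 45 DAF (56948 and 15576), and lower in replicate 2 than in replicate 1 of 45 DAF. At 40 and 45 DAF this sum was mostly HPS, which averaged 56144 and 34924 there and 193 at 50 DAF. SCB1 and the brighter SSTP-1 probe set had fallen earlier, from means of 17271 and 42803 at 25 DAF to 111 and 1226 at 40 DAF. The other SSTP-1 probe set averaged 436 at 25 DAF and 391 at 50 DAF. The part of seed coat and surface tissues in the GBSSIa result was not tested.

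LOC547684, the first beta-amylase, moved the opposite way and rose between 45 and 50 DAF. The brightest probe set read 1536 and 1483 at 25 DAF, 1617 and 1443 at 30 DAF, 1461 and 1188 at 40 DAF, 1331 and 3013 at 45 DAF, and 17083 and 25098 at 50 DAF. Every array of 50 DAF was above all 8 others. The rise from 25 to 50 DAF was 13.7-fold (log2 change 3.78, SE 0.33, limma adjusted p = 8.09e-05).

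The other LOC547684 probe sets also rose. The second gave 874 and 882 at 25 DAF, 1007 and 1009 at 30 DAF, 888 and 733 at 40 DAF, 840.2 and 2447 at 45 DAF, and 17239.7 and 21765 at 50 DAF, a change of 4.46 from 25 to 50 DAF (SE 0.38, limma adjusted p = 7.28e-05). The third gave 691 and 457 at 25 DAF, 832 and 630.5 at 30 DAF, 619 and 656 at 40 DAF, 524 and 1842 at 45 DAF, and 11378 and 15764 at 50 DAF, a change of 4.58 (SE 0.49, limma adjusted p = 0.000147). On all 3 probe sets replicate 2 of 45 DAF stood above every array of 25, 30 and 40 DAF, while replicate 1 lay among them.

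From 45 to 50 DAF the 3 LOC547684 probe sets rose by 3.37, 3.76 and 3.77 on the log2 scale (limma, adjusted p = 0.00037, 0.000393 and 0.000976). From 40 to 45 DAF they changed by 0.60, 0.83 and 0.62, with limma adjusted p = 1 for each. Without replicate 1 of 45 DAF their log2 changes from 40 to 45 DAF were 1.19, 1.59 and 1.59 (limma, adjusted p = 0.0491, 0.00915 and 0.033). That fit called 2.19% of all probe sets higher and 0.990% lower, and the fit without replicate 2 of 45 DAF called 0% in either direction. A fit that leaves out an array has a single array at that time point, which is assumed to vary like the other time points, so these p-values carry no replication at 45 DAF. Without replicate 1 the remaining rise to 50 DAF was 2.79, 2.99 and 2.81, and without replicate 2 it was 3.95, 4.52 and 4.73. The desiccation-stage genes SLE2 and MAT1 (2 of 2 found) had summed signals of 14988 and 103670 in replicates 1 and 2 of 45 DAF, and of 188030 and 169320 at 50 DAF. Earlier their sums were 233 and 287 at 25 DAF, 591 and 669 at 30 DAF, and 28606 and 41169 at 40 DAF. They thus rose between 30 and 40 DAF, where no LOC547684 probe set was called higher. The part of desiccation in the LOC547684 result was not tested.

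LOC547931, the second beta-amylase, showed no called change to 45 DAF and then fell. Its 1 probe set read 48983 and 54862 at 25 DAF, 51766 and 44588 at 30 DAF, 58156 and 54166 at 40 DAF, 55536.5 and 40953 at 45 DAF, and 21409 and 22991.5 at 50 DAF. Both 50 DAF arrays were below the other 8, which lay between 40953 and 58156. The fall from 25 to 50 DAF was 2.34-fold (log2 change -1.22, SE 0.22, limma adjusted p = 0.00192). It came between 45 and 50 DAF (-1.10, limma adjusted p = 0.00595), and without replicate 1 of 50 DAF this call was lost (-0.98, adjusted p = 0.072). Whether a bright spot was saturated cannot be read from these values. The size of the fall also depended on scaling, at -1.68 with the values as deposited and -1.82 after quantile normalization.

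SS, the sucrose synthase, had lower signals from 40 DAF on, a step called between 30 and 40 DAF at its second probe set only. The brightest probe set read 28008.5 and 36994 at 25 DAF, 26491 and 32627 at 30 DAF, 18121 and 13916 at 40 DAF, 15586 and 17888 at 45 DAF, and 17905 and 15819 at 50 DAF. All 4 arrays of 25 and 30 DAF were above all 6 later arrays, and the later arrays overlapped. The change from 25 to 50 DAF was -0.94 (SE 0.23, limma adjusted p = 0.0102), a 1.91-fold fall.

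The same step was present in the other SS probe sets. The second gave 14664 and 19452 at 25 DAF, 16177 and 20583 at 30 DAF, 8727 and 6793.5 at 40 DAF, 8343 and 8955 at 45 DAF, and 9995 and 7949 at 50 DAF, with a change of -0.92 (SE 0.24, limma adjusted p = 0.0118). The third gave 12290.1 and 18491 at 25 DAF, 14559 and 19656 at 30 DAF, 8090.3 and 6109 at 40 DAF, 8709 and 6479.5 at 45 DAF, and 5724 and 4856 at 50 DAF, with a change from 25 to 50 DAF of -1.52 (SE 0.28, limma adjusted p = 0.00211). In each the 4 arrays of 25 and 30 DAF exceeded the 6 others. At the common array median, the third alone was lower on both arrays of 50 DAF than on any earlier array. With values as deposited this also held for the brightest, at 12757 and 11377 against 14257 or more on the earlier arrays.

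From 30 to 40 DAF the SS probe sets changed by -0.89, -1.24 and -1.27 on the log2 scale (SE 0.23, 0.24 and 0.28, limma adjusted p = 0.114, 0.0483 and 0.0714). The second was the only member called in that interval, where 0.678% of all probe sets were higher and 0.481% lower. Leaving out either array of 45 DAF kept these log2 changes and added calls of SS, and leaving out any other array lost the call. These percentages belong to the reported fit, and no share of all probe sets is given for the fits with an array left out. From 45 to 50 DAF the changes of SS were 0.01, 0.04 and -0.51 (limma, adjusted p = 0.977, 0.913 and 0.207), with 95% intervals of -0.52 to 0.54, -0.49 to 0.58 and -1.14 to 0.12. CAB3, a chlorophyll-binding protein gene of photosynthetic tissue (1 of 2 listed symbols found, 5 probe sets, none at 0), summed to 93357 to 140140 at 25 and 30 DAF, 16516 to 34119 at 40 and 45 DAF, and 3584.8 and 4327.7 at 50 DAF. Not all 5 CAB3 probe sets fell. A dim probe set rose, with means of 195 at 25 DAF, 415 at 40 DAF and 976 at 50 DAF, and another averaged 97 at 25 DAF and 91 at 50 DAF. The part of photosynthetic tissue in the SS step was not tested.

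**Figure D2:**
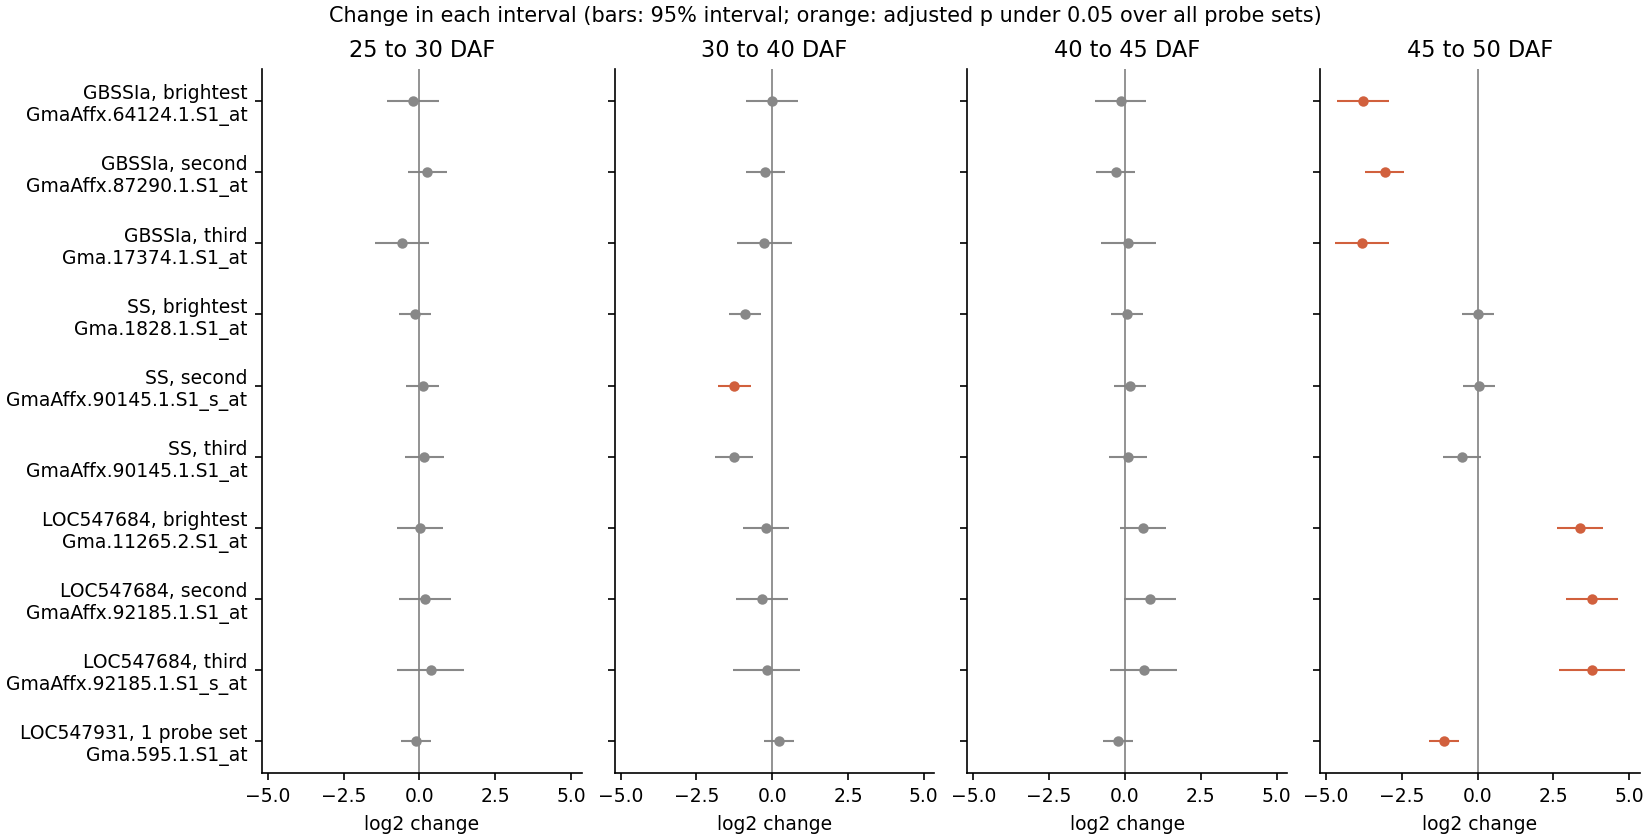
Log2 change of each of the 10 probe sets in the 4 intervals between neighbouring time points, with 95% intervals of the limma fit; orange marks an adjusted p under 0.05 over all probe sets. The calls lie in the interval from 45 to 50 DAF for GBSSIa, LOC547684 and LOC547931, and for 1 SS probe set in that from 30 to 40 DAF.

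Counted over the intervals, no member was called from 25 to 30 DAF, where 0.0106% of all probe sets were higher and 0% lower and where no member had an unadjusted limma p under 0.05. None was called from 40 to 45 DAF, where 0% of all probe sets were called in either direction and again no member had an unadjusted p under 0.05. From 45 to 50 DAF 3 members were higher and 4 lower (limma, adjusted p under 0.05), where 18.6% of all probe sets were higher and 12.6% lower. The 3 members not called there were those of SS.

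**Figure D3:**
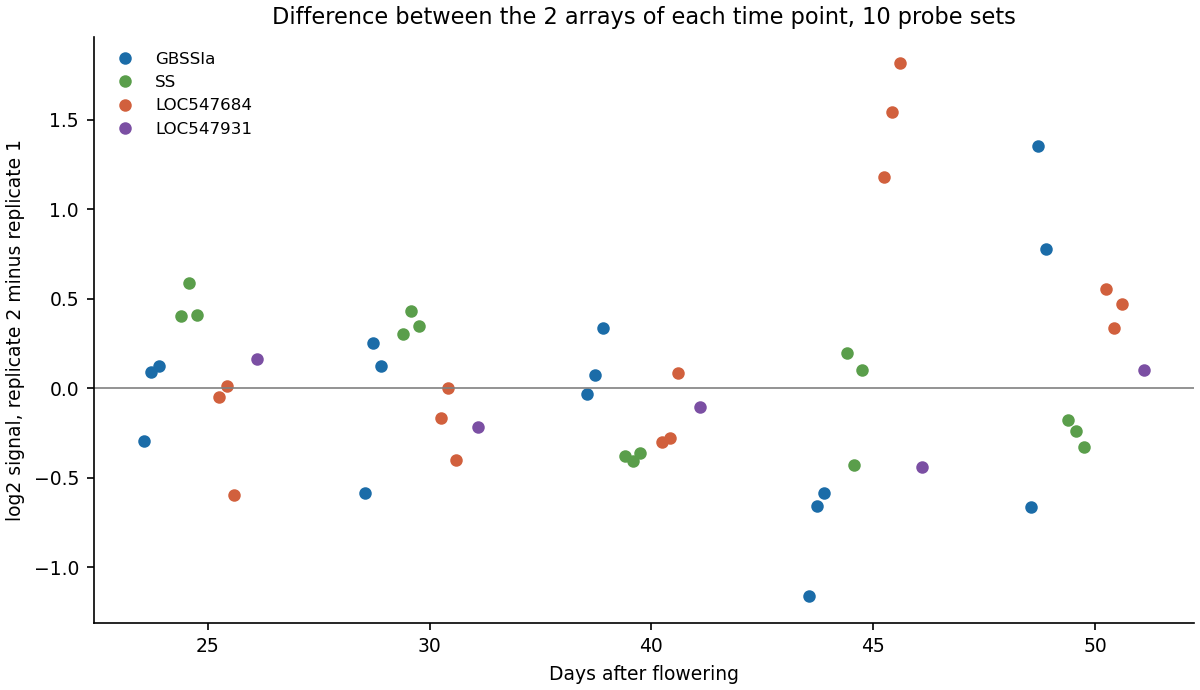
Log2 signal of replicate 2 minus replicate 1 for each of the 10 probe sets at each time point. The widest spread is at 45 DAF, from -1.16 for a GBSSIa probe set to 1.81 for a LOC547684 probe set, with the SS probe sets between -0.43 and 0.20.

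The direction of the change from 25 to 50 DAF was the same for every member under the 3 scalings tried. With values as deposited the median of all probe sets moved by -0.46 on the log2 scale, since the arrays of 50 DAF then keep their lower medians. The 3 changes of LOC547684 then ranged from 3.32 to 4.12, those of GBSSIa from -4.99 to -3.79 and those of SS from -1.98 to -1.38. Scaling altered calls of SS. None of its probe sets was called from 30 to 40 DAF with values as deposited (0 of 3). From 45 to 50 DAF the third SS probe set changed by -1.01 with values as deposited (limma, adjusted p = 0.0272) and by -1.19 after quantile normalization (adjusted p = 0.0155). In that interval the brightest and second changed by -0.49 and -0.46 with values as deposited (limma, adjusted p = 0.156 and 0.187). After quantile normalization each changed by -0.66 (limma, adjusted p = 0.0656 and 0.0704). Whether SS was level after 40 DAF therefore depended on the scaling.

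**Figure D4:**
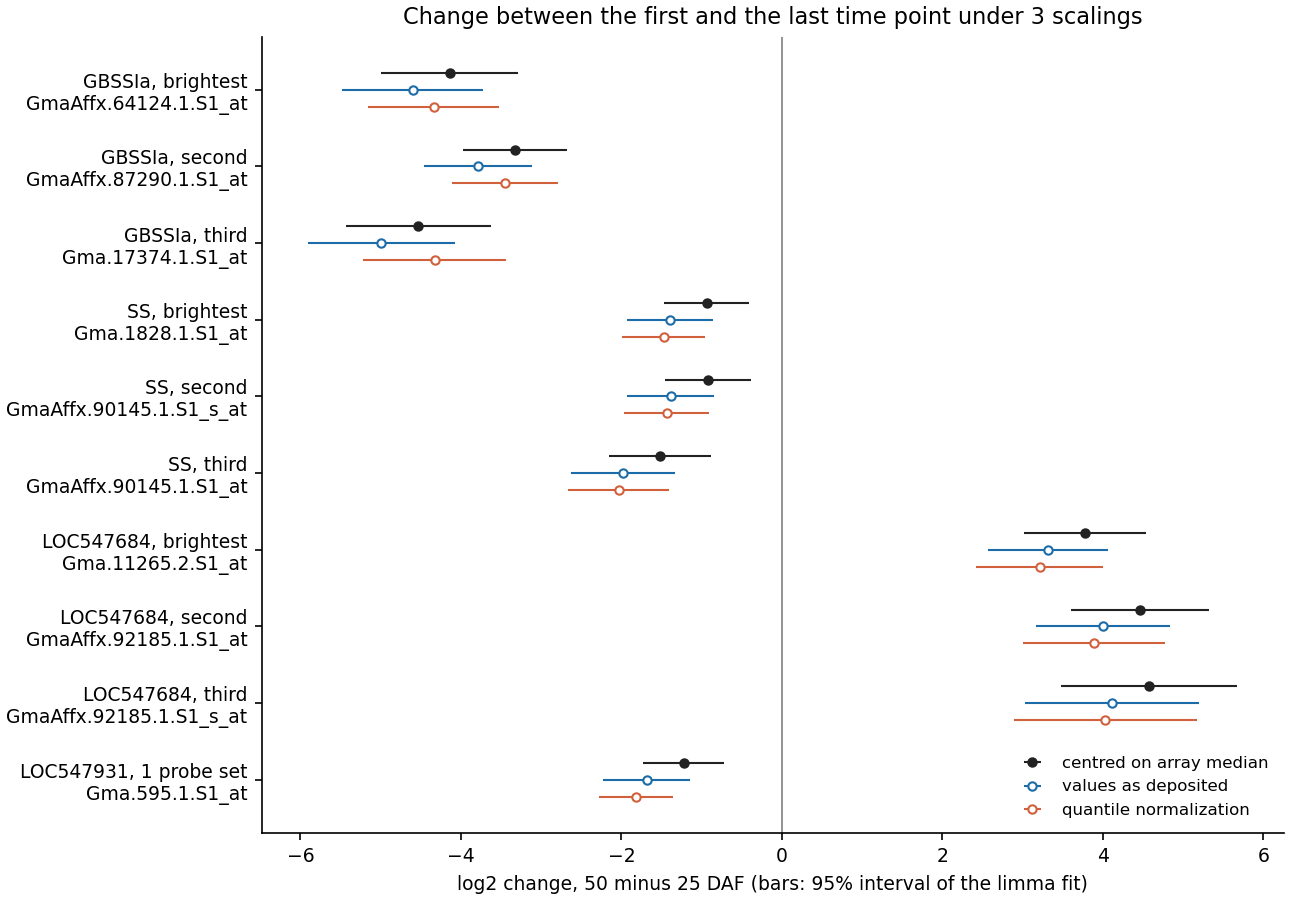
Log2 change from 25 to 50 DAF of each probe set with its 95% interval from limma, for log2 values centred on the array median (filled), as deposited (blue) and quantile normalized (orange). LOC547684 lies above 0 and the other 3 genes below 0 under each scaling, with LOC547931 moving from -1.22 to -1.68 and -1.82.

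Ratios of 2 genes on the same array do not depend on a factor that scales the whole array, though quantile normalization can change them. They were compared over time with an exact permutation test, using the brightest probe set of each gene. The test was one-sided by construction of its F statistic. It covered every way of splitting the 10 arrays into 5 pairs (smallest possible p 0.00106). For SS over LOC547684 the log2 ratio was 4.19 and 4.64 at 25 DAF, 4.03 and 4.50 at 30 DAF, 3.63 and 3.55 at 40 DAF, 3.55 and 2.57 at 45 DAF, and 0.07 and -0.67 at 50 DAF. The ratio was lower on both arrays of 50 DAF than on any other, and this pair differed in time course (exact permutation p = 0.00423, adjusted over 6 pairs 0.0254). The other 5 pairs had adjusted p-values of 0.0656 to 0.0974 in the exact permutation test. Among them GBSSIa over LOC547684 changed most, from between 2.98 and 3.12 at 25 DAF to between -5.27 and -4.47 at 50 DAF (exact permutation p = 0.0974, adjusted 0.0974). The F of this pair, 54.45, was the largest of the 6. Where mainly 50 DAF stands apart, every split that keeps its 2 arrays together gives a large F. The p-value then rests on how the other arrays happen to pair, so a high value does not show equal time courses. LOC547684 over LOC547931, the ratio of the beta-amylases, was -5.00 and -5.21 at 25 DAF and -0.33 and 0.13 at 50 DAF (exact permutation p = 0.0741, adjusted 0.0889). SS over LOC547931 was -0.81 to -0.57 at 25 DAF and -0.54 to -0.26 at 50 DAF, with a fall of 1.11 from 30 to 40 DAF and a rise of 1.12 from 45 to 50 DAF (exact permutation p = 0.0328, adjusted 0.0656). A ratio of 2 probe sets gives how it moved, not which transcript was more abundant.

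Other enzymes of the pathway were taken from 2 lists. The list by Arabidopsis locus held 10 probe sets of 9 loci, all from transcripts the study had itself called as changing in these samples, so its counts are not independent evidence. Of these 7 were higher and 3 lower at 50 than at 25 DAF (median log2 change 1.64, against 0.17 over all probe sets). Of all probe sets 24.6% were higher and 19.3% lower in that comparison. The overall F-test in limma (adjusted p under 0.01) called 9 of these 10, and 2 of 8 in the list by symbol. It called 24.0% of all probe sets. The list by symbol held 8 probe sets of 4 genes, of which 6 were higher and none lower, also at an unadjusted limma p under 0.05 (median 1.88), dropping to 3 higher without replicate 2 of 25 DAF.

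Of the 6 starch-making probe sets listed, 5 were higher at 50 than at 25 DAF, where GBSSIa was lower. The large subunit of ADP-glucose pyrophosphorylase (AT1G27680), which makes the ADP-glucose that starch synthases use, rose from 3577 and 3537 at 25 DAF to 22123 and 25006 at 50 DAF (log2 change 2.73, limma adjusted p = 9.13e-05). The soluble starch synthase 3 (AT1G11720) rose from 863 and 1118 to 4346 and 3963 (2.08, adjusted p = 0.00021). The 3 branching enzyme probe sets rose by 1.74 (AT2G36390, limma adjusted p = 0.000279) and by 1.54 and 1.08 (AT5G03650, adjusted p = 0.000307 and 0.00132). The sixth, of plastidial glucose-6-phosphate isomerase (LOC100818441), fell by 1.40 (adjusted p = 0.00431), and this list holds none of the starch enzymes that the study did not call.

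On the side of starch breakdown, BMY2, a further beta-amylase symbol, rose from 467 and 532 to 2934 and 3709.8 at its brightest probe set (log2 change 2.73, limma adjusted p = 0.00217), in the direction of LOC547684. A second BMY2 probe set rose by 2.87 (adjusted p = 0.00483), and the third had signals from 4.64 to 67.0 at these times and a change of -1.43 (adjusted p = 0.531). Both BMY2 probe sets that rose had, like LOC547684, a higher signal in replicate 2 of 45 DAF, by 2.09 and 2.35 on the log2 scale. The maltose exporter of the plastid (AT5G17520) rose by 2.10 (adjusted p = 0.000146).

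Around sucrose, a second sucrose synthase (AT4G02280, an _s_at probe set) ran against SS. It gave 8585 and 7611 at 25 DAF and 45822 and 45909 at 50 DAF, a rise of 2.50 on the log2 scale (limma, adjusted p = 9.43e-05). UDP-glucose pyrophosphorylase (LOC100794066), which interconverts UDP-glucose and glucose-1-phosphate, was, like SS, lower, with a change of -1.10 from 30 to 40 DAF (adjusted p = 0.0567) and a fall of 0.77 from 25 to 50 DAF (adjusted p = 0.0199). The vacuolar invertase LOC100799487, the other route of sucrose cleavage, fell by 3.91, from 5220.4 and 4839 to 316 and 354 (adjusted p = 4.96e-05). Galactinol synthase (GOLS), which opens the route from sucrose to the raffinose family of sugars, rose from 94.0 and 141 to 29446 and 14998 (7.51, adjusted p = 0.000361). The sucrose transporter SUT1 rose at 2 of its 3 probe sets, by 1.03 and 0.97 (adjusted p = 0.00788 and 0.00661), and the third changed by 0.61 (adjusted p = 0.165). The cell wall invertase CWINV was called higher as well (4.19, adjusted p = 0.00963), but its signals were 6.98 and 2.10 at 25 DAF and 56.7 and 86.3 at 50 DAF, near or under the low limit of 50.

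**Figure D5:**
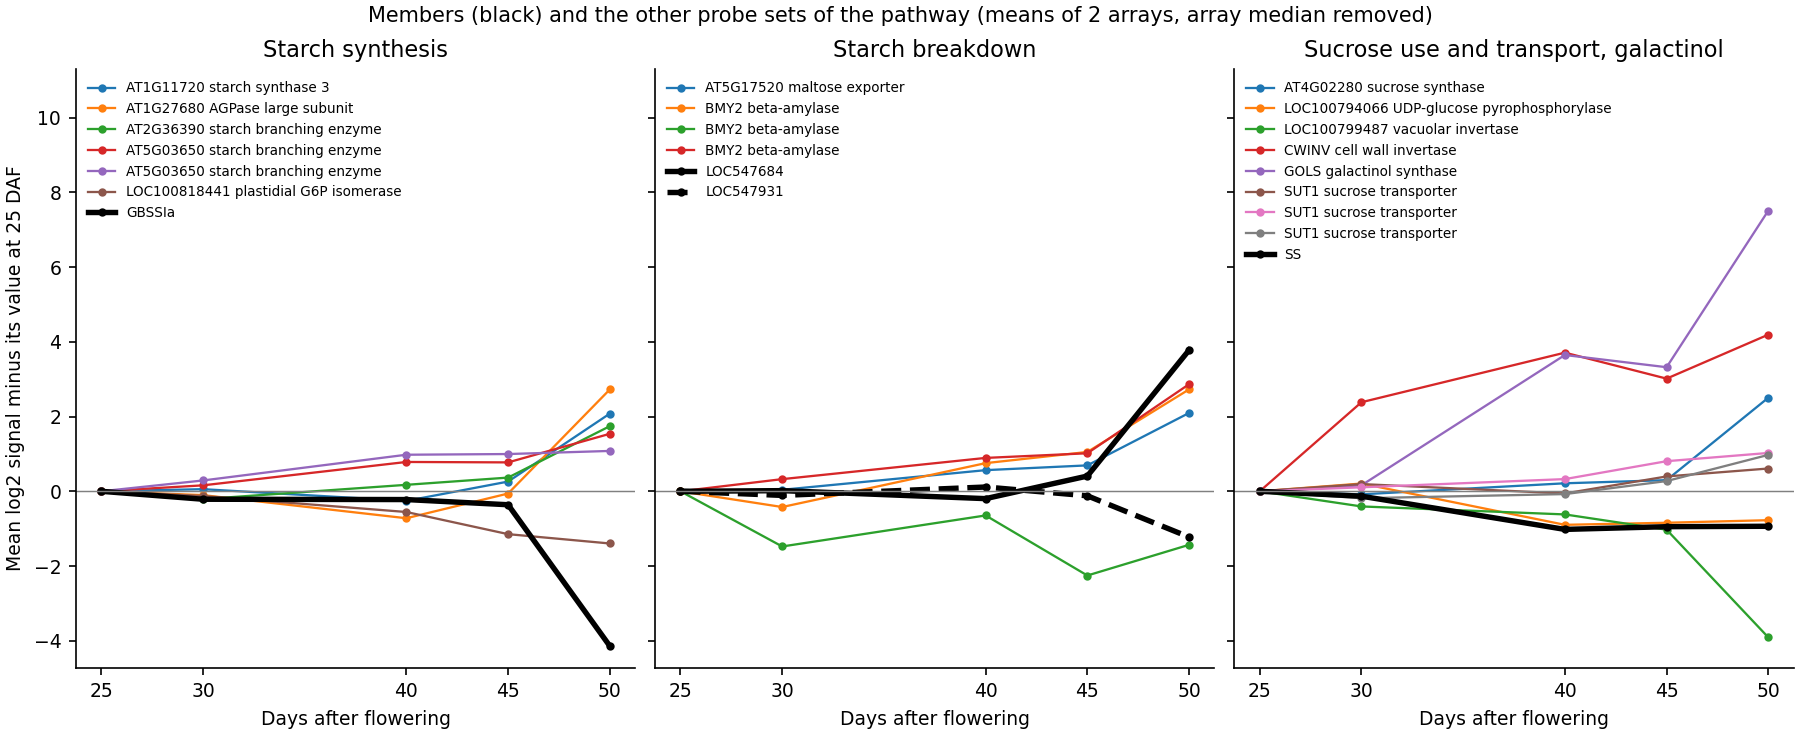
Mean log2 signal relative to 25 DAF (array median removed, means of 2 arrays) of the members in black and of the listed enzymes in colour, for starch synthesis, starch breakdown, and sucrose use with galactinol synthesis. At 50 DAF GBSSIa lies at -4.14 while the ADP-glucose pyrophosphorylase, starch synthase 3 and branching enzyme probe sets lie between 1.08 and 2.73, and SS lies at -0.94 while the second sucrose synthase lies at 2.50.

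The named genes whose log2 signals over the 10 arrays were most like those of each member were found among 496 to 498 probe sets that changed over time and had a signal at or above the median; the arrays share seed stage and scaling, so these correlations describe likeness only. For GBSSIa they were PIP2-4, a plasma membrane aquaporin (Pearson r = 0.9948), ADR11 (0.9922), the gibberellin-regulated peptides GASA12 (0.9909) and GASA3 (0.9889), and the cytochrome P450 CYP72A67 (0.9872). For SS they were 3 probe sets of SPCP1, a vacuolar membrane aquaporin by its synonym GmTIP1;3 (0.9689, 0.9568 and 0.9106), the histone deacetylase HD2A (0.9669) and ACCC-2, a biotin carboxylase of plastid acetyl-CoA carboxylase (0.9382). For LOC547684 they were COI1, the jasmonate receptor component (0.9925 and 0.9855), the small heat shock protein HSP17.5-E (0.987 and 0.9844) and FTRC, of ferredoxin-thioredoxin reductase (0.986). For LOC547931 they were GASA27 (0.9934), the vacuolar antiporter NHX1 (0.9841), GT-2B (0.9797), SUBI-1 (0.9796) and again PIP2-4 (0.9794).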

How the data were processed

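Total RNA of whole seeds was hybridised to 10 arrays, 2 for each of 5 time points. The authors deposited 1 table of intensity values, MAS5 signals of 37593 probe sets, globally scaled, on a linear scale; the scanner files and detection calls were not used here. The study's text gives another day for the third time point in places, and the 40 DAF of the sample labels was used. The log2 of each value was set relative to the median log2 of its array. Each probe set was fitted in limma 3.58.1 (R 4.3.3) on time point and replicate number, the block of the study's own model, with a variance trend (4 residual and 5.08 prior degrees of freedom), and p-values were adjusted by Benjamini-Hochberg over all probe sets, with thresholds of 0.01 for the overall F-test and 0.05 for contrasts. Log2 changes are of these centred values with no pseudocount and no filter; signals under 50 are called low. Samples sharing a replicate number did not deviate together (10 correlations, -0.03 to 0.03), so the number does not pair them. The 2 replicates are separate seed pools, and 2 a time point limit the precision. Probe sets were named from the platform annotation: 8677 have 1 symbol, 370 several and 28546 none. Synonyms come from RefSeq's gene table for assembly Glycine_max_v4.0, whose coordinates are not given because the array files name no build. The script was tested on simulated data. The named genes are all member probe sets, all of the list by locus, up to 4 probe sets per enzyme class of the list by symbol, and the 5 probe sets most like each gene. The members and lists were chosen with earlier results of these data known. The alternatives were no block, 2 other scalings, no variance trend, robust fitting, a pseudocount of 50, a filter at the median, the F-test of the methods, an F-test threshold of 0.05, all probe sets per gene for the ratios, and leaving out each array or both of 45 DAF.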

Additional observations from a re-analysis of the deposited data

How the results depend on the processing

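The counts of members higher and lower at 50 than at 25 DAF (3 and 7) kept their direction and stayed within 1.5 times under all alternatives run, the lowest count lower being 5, without replicate 2 of 25 DAF or of 50 DAF; there 2 SS probe sets lost the call (the brightest -0.73 and -0.78, limma adjusted p = 0.103 and 0.0929; the second -0.69 in both, 0.123 and 0.116). Of 179 recomputed changes of single members from 25 to 50 DAF, 174 kept direction and call and 5 kept direction only. The overall F-test called 0 members without the variance trend and 0 with the methods' F-test after adjustment, and 5 to 10 when 1 array was left out, the 5 without either array of 50 DAF. Members lower at 40 than at 30 DAF numbered 1 in the reported fit, 2 without the replicate block and 0 with values as deposited. They numbered 0 without the variance trend and 2 with a pseudocount of 50. Without both arrays of 45 DAF (an alternative chosen after seeing the data) they numbered 3. This count also varied with the array left out. The share of all probe sets called in that interval is given for the reported fit only. The replicate block changed no other call listed for the members. Members higher at 45 than at 40 DAF numbered 0 to 3 with 1 array left out, the 3 without replicate 1 of 45 DAF. The counts of the pathway lists were recomputed as alternatives added later, and 1 moved, the 6 probe sets higher by symbol to a range of 3 to 6 with 1 array left out. With all probe sets per gene, 4 ratios passed the threshold in the exact permutation test, each at adjusted p = 0.0475: SS over LOC547684 (-5.40), which had also passed with the brightest probe sets, and GBSSIa over SS (-2.87), GBSSIa over LOC547931 (-2.77) and SS over LOC547931 (0.10), which had not. The causes of these changes were not tested. With 2 arrays a time point, small changes were not detectable at this precision.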
